A study of Mus musculus with 5 samples.

Results

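E2F3B-only regions are the parts of the genome where a peak was called in the E2F3B chromatin immunoprecipitation sequencing (ChIP-seq) library and neither the E2F1 nor the E2F3A library had an overlapping call. They were chosen by their measured positions, as the peaks of the E2F3B list that overlapped no peak of the E2F1 or E2F3A list by 1 bp or more. This rule kept 2784 of the 4704 E2F3B peaks, which is 59.2% of that list, and the 3 lists held 10489 peaks in all. The absence of an overlapping call chose these peaks, so their distances to the other lists and their widths are given as descriptions and no test was made.

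The cells were fibroblasts from mouse embryos, a connective tissue cell type, of a mixed strain background made up of FVB/NT, 129S1/Svlmj and C57BL/6NT. They were sampled while proliferating without synchronization in DMEM with fetal bovine serum. Each of the 3 groups stably overexpressed 1 protein, E2F1, E2F3A or E2F3B, and each was represented by 1 library and 1 peak list. E2F1 was precipitated with an E2F1 antibody, and E2F3A and E2F3B with the same E2F3 antibody. The E2F3B list therefore cannot be told apart from E2F3A or E2F3B that these cells made from their own E2f3 gene, or from background of that antibody. The vector and promoter that drove overexpression, and the state of the cells' own E2f1 and E2f3 genes in these groups, were not given in the sources used here. The 2 knockout samples, titled 1KO_MEF and 3KO_MEF, were not analysed here.

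E2F proteins are transcription factors that bind as dimers with DP proteins to GC-rich promoter elements and control genes for DNA replication and cell cycle entry. E2F3A and E2F3B come from the same gene, use alternative promoters and first exons, and share the DNA-binding, dimerization and retinoblastoma-binding parts. E2F3A is known to accumulate as cells approach S phase, whereas E2F3B is known to be present through the cell cycle, quiescence included. Genes, promoters and sequence motifs at the regions below were not analysed here.

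The lists held positions only, without read counts or scores, so the depth behind each peak was unknown. A missing call in the E2F1 or E2F3A list is therefore no evidence that the protein was absent from that region. The E2F1 list held 3787 peaks and the E2F3A list 1998, on the same 20 chromosomes. Peak numbers in the names ran to 4716 for E2F3B, 3803 for E2F1 and 2008 for E2F3A, and 12, 16 and 10 of those numbers were not analysed here. A peak at such a number could have removed a few regions from the set. Each protein had 1 library, so no spread between replicates could be given. All 95% intervals below are Wilson intervals of shares of peaks, or order-statistic intervals of medians, and cover counting error of peaks only.

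The E2F3B-only peaks covered 0.966 Mb, or 53.2% of the length of the E2F3B list, which was less than their 59.2% of its peaks because they were narrower. The other 1920 E2F3B peaks overlapped another list and are called shared below. Of these, 1087 (23.1% of the E2F3B list) overlapped E2F1 and not E2F3A, 645 (13.7%) overlapped both, and 188 overlapped E2F3A and not E2F1.

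Few peaks stood close to the edge of the rule. The smallest gap between an E2F3B-only peak and a peak of another list was 1 bp, and 22 such peaks had a gap of at most 100 bp. On the other side, the smallest overlap of a shared E2F3B peak was 4 bp, and 24 shared peaks overlapped by at most 100 bp at their largest overlap. The median largest overlap of a shared peak was 378 bp, close to the width of a whole E2F3B peak, so most E2F3B peaks either had a broad overlap or none.

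The 5 E2F3B-only peaks closest to another list show what the edge looked like, in mm9 coordinates. The peak chr3:96500604-96500918 (315 bp) began 1 bp from an E2F1 peak of 525 bp, which overlapped no E2F3B peak, and its next E2F3B peak lay 215 kb away. The peak chr5:139728095-139728427 (333 bp) lay 3 bp from an E2F3A peak of 243 bp, 40 bp from a shared E2F3B peak and 55 bp from an E2F1 peak. It was thus a separate call within a region that all 3 libraries marked. The peak chr13:46822749-46823250 (502 bp) lay 13 bp from an E2F1 peak and 21 bp from the shared E2F3B peak next to it. The peak chr5:34064074-34064481 (408 bp) lay 17 bp from an E2F1 peak of 573 bp, with no other E2F3B peak for 62.7 kb. The peak chr4:150431556-150431752 (197 bp) lay 23 bp from an E2F1 peak of 616 bp and 124 bp from a shared E2F3B peak. In 3 of these 5 the neighbouring peak overlapped another E2F3B peak, and in the other 2 it did not.

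E2F3B-only peaks were narrow. Their median width was 337 bp (95% interval 334 to 340; quartiles 285 and 384 bp), and the range ran from 152 to 1092 bp. Shared E2F3B peaks from the same library had a median of 419 bp (411 to 428; quartiles 331 and 527 bp). Among the shared peaks the median was 370 bp with E2F3A alone, 396 bp with E2F1 alone and 484 bp with both, so each of these classes had wider peaks than the E2F3B-only set by their medians. E2F3A-only peaks, called in the other library made with the E2F3 antibody, had a median of 332 bp (327 to 336), and the 1100 of them reached no further than 619 bp. The 2082 E2F1-only peaks had a median of 567 bp. Fragment length and the caller both enter a peak's width, and the lists were not scaled to each other, so only widths within the E2F3B list can be set side by side directly. A wide peak also meets a 1 bp overlap more easily, so the rule itself favours narrow members.

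The share of E2F3B peaks without a partner lay between 68.45% and 77.48% in steps of 25 bp from 200 to 374 bp. It was lower in wider peaks. It was 77.8% (69.1 to 84.6) of the 108 peaks under 200 bp and lay between 70.3% and 73.5% in each 50 bp step from 200 to 399 bp. In steps of 25 bp it was 74.6% from 350 to 374 bp and 62.6% from 375 to 399 bp, so it was already lower before 400 bp. It was 48.3% (44.0 to 52.6) from 400 to 449 bp, 42.1% from 450 to 499 bp and 30.6% from 500 to 599 bp. From 600 to 799 bp it was 18.5% (14.3 to 23.5), and of the 66 peaks of 800 bp or more 7 were E2F3B-only (10.6%, 5.23 to 20.3). The upper tail was therefore thin among the E2F3B-only peaks, with 184 of them (6.61%) at 500 bp or more, against 568 shared peaks (29.6%). Within the set, the median width by distance to the other lists ranged from 312.5 to 348.5 bp. It was 312.5 bp for the 22 peaks with a gap of at most 100 bp, 348.5 bp for the 108 peaks with a gap over 100 bp and up to 1 kb, 342 bp for the 212 at 1 to 10 kb, 338 bp for the 1098 at 10 to 100 kb, 336 bp for the 1221 at 100 kb to 1 Mb and 324 bp for the 123 beyond 1 Mb.

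**Figure D1:**
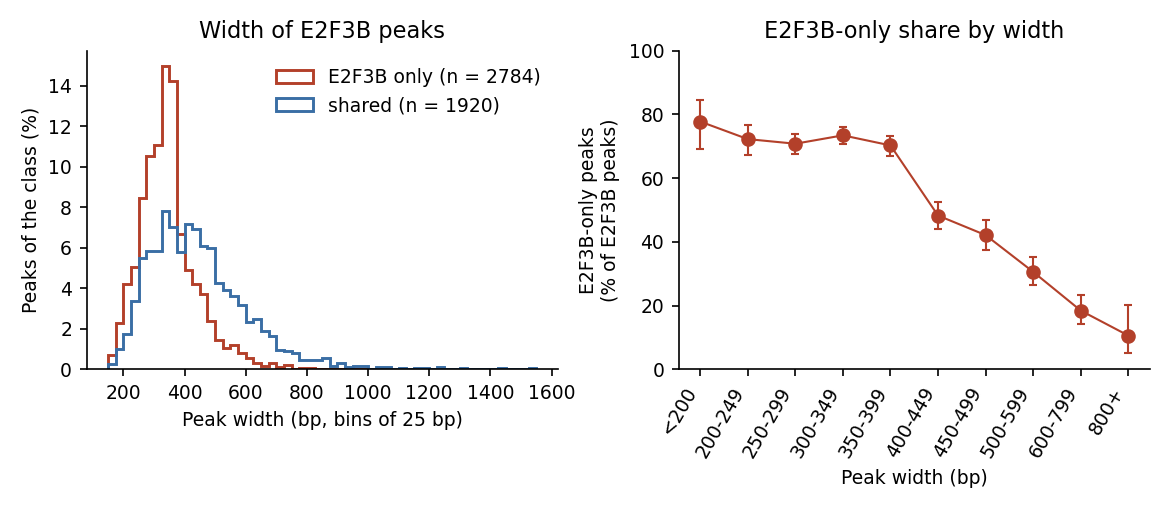
Left, width of the 2784 E2F3B-only and 1920 shared E2F3B peaks in bins of 25 bp, as a percent of each class. Right, the percent of E2F3B peaks that are E2F3B-only by width, with 95% Wilson intervals; the share is 70.3% at 350 to 399 bp and 10.6% at 800 bp or more.

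The 5 widest E2F3B-only peaks were exceptions in size, and none of them stood at the border of another list's peak. The widest, chr12:117519173-117520264 (1092 bp), lay 123 kb from the nearest E2F1, E2F3A and shared E2F3B peaks. The peak chr17:39984784-39985854 (1071 bp) was the most isolated of the 5, with its nearest peak in any list 1085 kb away. The peak chr1:74634191-74635157 (967 bp) lay 80.9 kb from an E2F1 peak of 1430 bp and 81.1 kb from an E2F3A peak. The peak chr17:3114243-3115178 (936 bp) lay 29.7 kb from an E2F3A peak of 462 bp that was shared with E2F3B, and 266 kb from E2F1. The peak chr8:73133303-73134234 (932 bp) lay 19.5 kb from an E2F3A peak of 341 bp. No filter for regions of artefact signal was applied, so a wide peak in 1 list does not by itself show a site of E2F3B. At the other end, the 5 narrowest were 152 to 161 bp wide. Of these, chr10:97693178-97693329, chr3:152786730-152786885 and chr3:67267785-67267945 had no other E2F3B peak within 400 kb. The peak chr9:89811459-89811610 lay 7.70 kb from another E2F3B-only peak, and chr6:125114904-125115063 lay 124 bp from an E2F1 peak of 791 bp and 545 bp from a shared E2F3B peak.

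E2F3B-only peaks were found on all 19 autosomes and X, at 1.09 per Mb over the spans that the lists covered, against 0.755 shared E2F3B peaks per Mb. Chromosome 8 was the densest, with 218 peaks or 1.70 per Mb, followed by chromosome 15 at 1.56, chromosome 9 at 1.53, chromosome 17 at 1.499 and chromosome 5 at 1.44. The lowest densities were 0.257 per Mb on X and 0.514 on chromosome 18, each with 41 peaks, followed by 0.739 on chromosome 7. The densest and sparsest chromosomes differed 6.62-fold, and shared peaks differed 6.38-fold between theirs, 17 and X. Chromosome 8 did not lead under each alternative: chromosome 17 did with peak centres within 100 bp (2.06 per Mb) and against the E2F3A list alone (2.27 per Mb), and chromosome 10 with the 50% widest peaks of each list (0.817 per Mb), while X stayed lowest under each alternative that kept X.

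Chromosomes rich in shared E2F3B peaks were also rich in E2F3B-only ones. Across the 20 chromosomes the densities of the 2 classes were correlated with Pearson's r = 0.810 and Spearman's rho = 0.826, and r was 0.786 without chromosomes 17 and X, the farthest from the median of shared peaks. Against the density of E2F1-only peaks r was 0.720 and rho 0.753, with r 0.778 without chromosomes 10 and 15. Against E2F3A-only peaks r was 0.828 and rho 0.860, with r 0.868 without the same chromosomes. These are descriptions over chromosomes, which differ in gene and base content and in how much of them reads can be aligned to, and the E2F3B classes also share 1 library.

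The share of E2F3B peaks that were E2F3B-only nevertheless differed between chromosomes. It was highest on chromosome 3, at 65.8% (59.4 to 71.6), and was 65.1% on chromosomes 8 and 18 and 64.8% on chromosome 5. It was lowest on chromosome 7, at 49.3% (42.8 to 55.8), and chromosome 17, at 49.6% (43.8 to 55.5), the 2 chromosomes where shared peaks outnumbered E2F3B-only ones. The intervals of chromosomes 4, 7, 11 and 17 lay below the 59.2% of the whole list and those of 3, 5 and 8 above it, among 20 intervals without adjustment. Chromosome 17 thus had a high density of E2F3B-only peaks with a low share, and chromosome 8 had both high. On every chromosome the median width of E2F3B-only peaks, 315 to 352 bp, was below that of shared peaks on that chromosome, 358 to 466 bp over chromosomes.

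**Figure D2:**
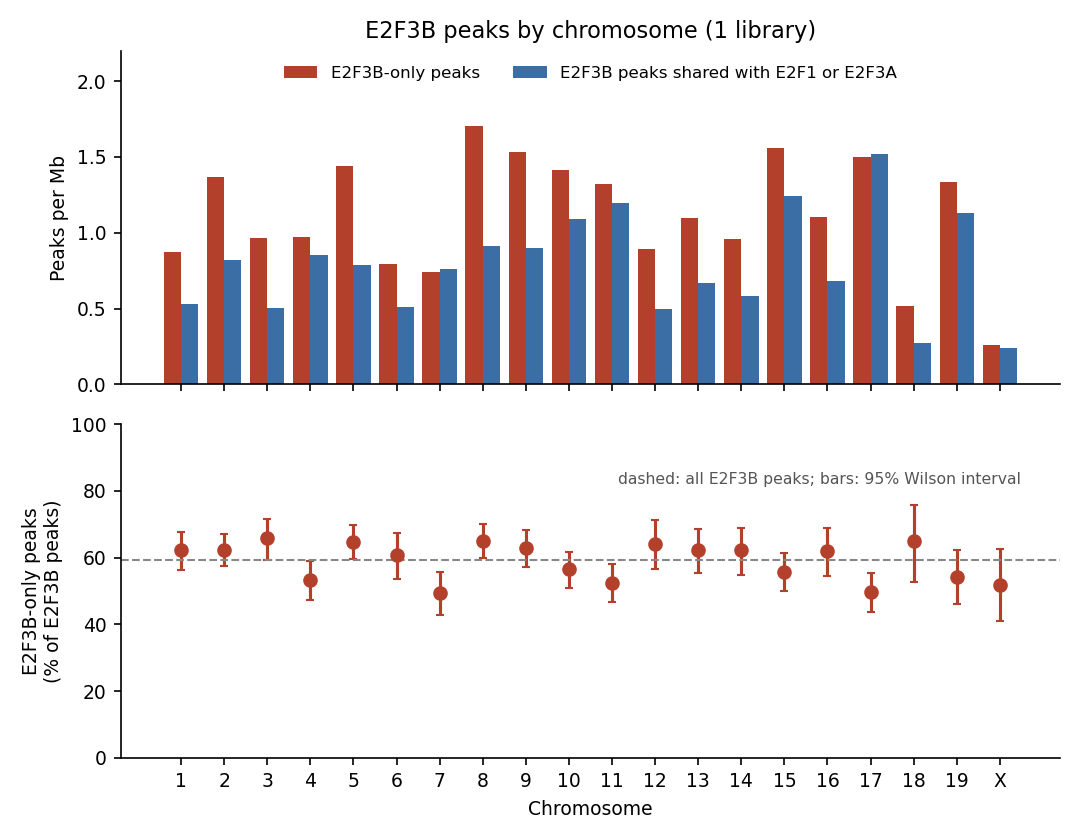
Top, E2F3B-only and shared E2F3B peaks per Mb of each chromosome. Bottom, E2F3B-only peaks as a percent of the E2F3B peaks of each chromosome, with 95% Wilson intervals and the 59.2% of the whole list as a dashed line. Density ranges from 0.257 on X to 1.70 on chromosome 8, and the share from 49.3% on chromosome 7 to 65.8% on chromosome 3.

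Along chromosomes, E2F3B-only peaks were somewhat more frequent toward high positions. Mouse chromosomes have their centromere at the low end. When the span of each chromosome was divided into 10 equal parts, the first held 222 E2F3B-only peaks (7.97%) and the last 347 (12.5%). Shared peaks went from 134 (6.98%) to 250 (13.0%). The share of E2F3B peaks that were E2F3B-only lay between 55.3% (50.7 to 59.8) in the second part and 63.4% (59.0 to 67.6) in the fifth, with no steady trend.

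At the scale of 1 Mb windows the peaks were spread thinly with a few dense spots. A total of 1357 windows held an E2F3B-only peak, and 657 of them (48.4%) held exactly 1. Windows with 5 or more numbered 90 and held 546 of the peaks (19.6%). Of these 1357 windows, 1127 also held a peak of E2F1 or E2F3A, and the other 230 held 320 E2F3B-only peaks (11.5%). How many of all 1 Mb windows held an E2F1 or E2F3A peak was not counted, so these numbers have no background beside them.

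The densest window was on chromosome 15 from 76000001 to 77000000, with 13 E2F3B-only, 7 shared E2F3B, 15 E2F1 and 7 E2F3A peaks. The windows chr10:79000001-80000000 and chr8:73000001-74000000 held 12 E2F3B-only peaks each. Both were dense in the other lists too, with 21 E2F1 peaks in the first and 13 in the second. Other dense windows held fewer peaks of the other lists than these 3. The E2F1 list held 3787 peaks over 2544 Mb of span, so 2 or more in a window is not a low count. The window chr3:89000001-90000000 held 10 E2F3B-only peaks with 3 shared E2F3B peaks, 4 E2F1 peaks and no E2F3A peak. The window chr8:13000001-14000000 held 7, with no shared E2F3B peak, 2 E2F1 peaks and no E2F3A peak. The window chr5:36000001-37000000 likewise held 7, with no shared E2F3B peak, 2 E2F1 peaks and 1 E2F3A peak. Dense spots of E2F3B-only peaks thus included windows with many peaks of all lists and windows with fewer. These windows were picked for their counts after the values were seen.

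**Figure D3:**
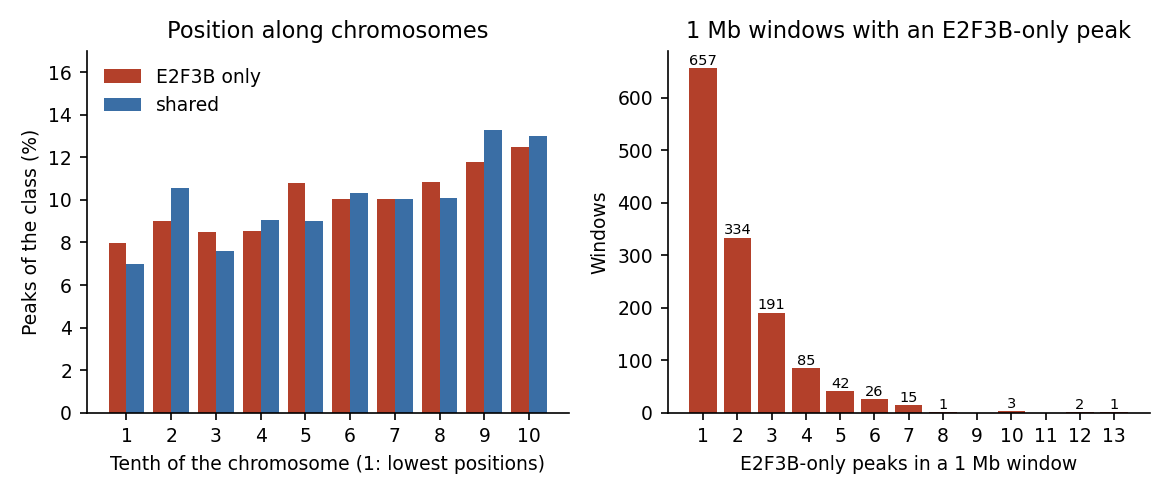
Left, percent of the 2784 E2F3B-only and 1920 shared E2F3B peaks in each of 10 equal parts of the chromosome span, from 7.97% to 12.5% between the first and last for E2F3B-only peaks. Right, number of 1 Mb windows by the number of E2F3B-only peaks in them, with 657 windows holding 1 and a single window holding 13.

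Most E2F3B-only peaks lay more than 10 kb from any peak of another protein, and 51.7% had one within 100 kb. No reference spacing was computed, so the gaps below are neither large nor small by a reference. The median gap to the nearest E2F1 or E2F3A peak was 94.2 kb (95% interval 87.9 to 100.4; quartiles 29.1 and 246 kb). To the E2F1 list alone it was 126 kb (118 to 134), and to the shorter E2F3A list 267 kb (250 to 286). The nearest peak was an E2F1 peak for 2025 of the 2784 (72.7%, 71.1 to 74.4) and an E2F3A peak for 758, while 65.5% of the peaks in these 2 lists belong to E2F1.

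A minority stood near a peak of another protein. Within 1 kb of an E2F1 or E2F3A peak there were 130 (4.67%, 3.95 to 5.52), within 10 kb 342 (12.3%, 11.1 to 13.6) and within 100 kb 1440 (51.7%). Among all E2F3B peaks, counting only peaks that they do not overlap, 13.4% lay within 10 kb. Shared peaks had 289 of 1920 (15.1%, 13.5 to 16.7) within 10 kb of a further E2F1 or E2F3A peak, and a median gap of 67.1 kb (61.4 to 73.2). E2F3B-only peaks were thus farther from the rest of the other lists than shared peaks were, by their medians. Since the rule removed overlapping peaks from 1 class only, this remains a description.

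The peaks within 1 kb of another protein's peak often lay near a shared E2F3B peak too. Without reads, a part of the same site cannot be told from a separate one. Of those 130, 70 (53.8%, 45.3 to 62.2) also had a shared E2F3B peak within 1 kb. These 70 were all of the E2F3B-only peaks that close to a shared E2F3B peak. A shared E2F3B peak overlaps an E2F1 or E2F3A peak by definition, so this nearness to both is largely set by the definition. Of the 108 within 1 kb of an E2F1 peak, that E2F1 peak overlapped another E2F3B peak in 61 cases (56.5%, 47.1 to 65.5). For the 54 within 1 kb of an E2F3A peak the count was 41 (75.9%, 63.1 to 85.4). In the whole lists, 2082 of 3787 E2F1 peaks and 1100 of 1998 E2F3A peaks overlapped no other list. The part of the rest that overlapped E2F3B was not counted, so part of these shares may be the general rate. The peaks within 1 kb of a shared E2F3B peak were 2.51% of all E2F3B-only peaks. Their median width of 346 bp (317 to 368) was near that of the whole set.

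Distances to the E2F1 list can be set beside those of E2F3A-only peaks, which also overlap no E2F1 peak. The E2F3A-only median was 206 kb (178 to 231), with 5.64% (4.42 to 7.16) within 10 kb, against 126 kb and 10.1% (9.06 to 11.3) for E2F3B-only. Against the E2F3A list, E2F3B-only peaks had a median of 267 kb with 5.39% (4.61 to 6.29) within 10 kb, and E2F1-only peaks 309 kb (287 to 333) with 3.65% (2.93 to 4.55). In both comparisons the E2F3B-only median was the smaller. Each comparison used the same target list for both sets. The rule used these lists, peaks are not replicates and each library stands alone, so the differences were not tested and the intervals do not show that the sets differ.

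E2F3B-only peaks also lay farther from other E2F3B peaks than shared peaks did. Their median gap to the nearest other E2F3B peak was 94.1 kb (87.9 to 99.6), against 53.1 kb (48.7 to 58.2) for shared peaks. Within 10 kb of another E2F3B peak there were 400 of them (14.4%, 13.1 to 15.7), against 437 shared peaks (22.8%, 20.9 to 24.7) and 17.8% of all E2F3B peaks. Within 1 kb the shares were 7.44% (6.52 to 8.47) and 14.5% (13.0 to 16.2).

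The nearest E2F3B neighbour of an E2F3B-only peak was E2F3B-only about as often as the list holds such peaks, while shared peaks had shared neighbours more often than their part of the list. For 1672 E2F3B-only peaks (60.1%, 58.2 to 61.9) it was another E2F3B-only peak, a class that makes up 59.2% of the list. For shared peaks it was another shared peak in 906 cases (47.2%, 45.0 to 49.4), a class that makes up 40.8%. At short range, 139 of the 207 E2F3B-only peaks within 1 kb of an E2F3B peak (67.1%, 60.5 to 73.2) had an E2F3B-only one as the nearest. Of the 279 shared peaks within 1 kb of an E2F3B peak, 215 (77.1%, 71.8 to 81.6) had a shared one as the nearest. A pair of neighbours counts from both sides in these numbers. An E2F1 or E2F3A peak that overlaps adjacent E2F3B peaks makes each of them shared, so the rule itself favours shared neighbours at short range. Of the 906 shared peaks with a shared neighbour, 215 were such short-range cases within 1 kb. How many lay under the same peak of another list was not counted.

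**Figure D4:**
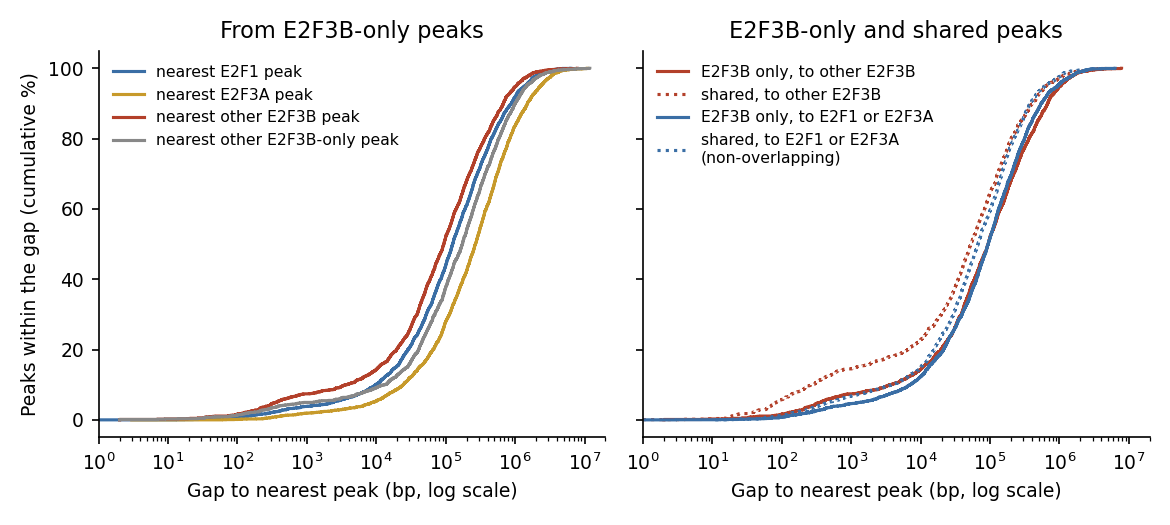
Cumulative percent of peaks by the gap in bp to the nearest peak, on a log axis. Left, from E2F3B-only peaks to each list, with medians of 126 kb for E2F1, 267 kb for E2F3A and 94.1 kb for other E2F3B peaks. Right, E2F3B-only (solid) and shared (dotted) E2F3B peaks, where the dotted lines lie to the left, with medians of 53.1 kb to other E2F3B peaks and 67.1 kb to further E2F1 or E2F3A peaks.

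Chains of E2F3B-only peaks were short. When consecutive E2F3B-only peaks with gaps of at most 10 kb were joined, 2528 peaks (90.8%) stood alone, and the other 256 (9.20%) formed 124 chains. Of these chains 117 held 2 peaks, 6 held 3 and 1 held 4. Their median length was 1347 bp, and 41 were no longer than 1 kb. Of the 124 chains, 9 held an E2F1 or E2F3A peak inside and 5 held a shared E2F3B peak. No count for other stretches of such short length was made, so these counts are neither high nor low by a reference.

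The chain of 4 lay at chr4:135690557-135703963 and held peaks of 339, 350, 275 and 334 bp. The last of its peaks were separated by an E2F3A peak that a shared E2F3B peak overlapped, while the nearest E2F1 peak was 137 kb away. Among the 6 chains of 3, the one with the most covered length was chr2:84581678-84584463, with peaks of 287, 320 and 576 bp within 2786 bp, 14.0 kb from E2F3A and 70.5 kb from E2F1. The next was chr5:111198864-111209769 with peaks of 332, 493 and 274 bp, far from any shared E2F3B peak, at 550 kb. The chain chr15:76028650-76036905 held peaks of 402, 376 and 201 bp and lay 2.05 kb from E2F3A and 7.87 kb from E2F1, in the densest window of the set. The chain chr7:28258559-28272149 held peaks of 271, 349 and 323 bp and lay 20.5 kb from E2F1. No E2F1 or E2F3A peak fell inside these 4 chains of 3.

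At the other extreme, 951 E2F3B-only peaks (34.2%, 32.4 to 35.9) had no peak of any list within 100 kb, and 47 (1.69%, 1.27 to 2.24) had none within 1 Mb. These 47 had a median width of 321 bp (281 to 352). The same counts were not made for shared peaks. Another E2F3B peak lay within 100 kb of 64.5% of shared and 52.0% of E2F3B-only peaks. The most isolated E2F3B-only peak was chrX:119944752-119945164 (413 bp), 6339 kb from the nearest peak, an E2F1 peak shared with E2F3B. The next was chr7:46913850-46914187 (338 bp), at 4587 kb. The others were chrX:83021858-83022274 (417 bp) at 2865 kb, chr1:31006758-31007087 (330 bp) at 2719 kb and chr12:63165069-63165420 (352 bp) at 2404 kb. These 5 were 330 to 417 bp wide, while the 47 with no peak of any list within 1 Mb ranged from 176 to 1071 bp.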

How the data were processed

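Peak lists of 3 ChIP-seq libraries were used, 1 each for E2F1, E2F3A and E2F3B. Per the submitters' processing notes Bowtie2, SAMtools and the build mm9 were used, and the deposited peak names carry the name of the caller MACS. Versions, threshold, control and duplicate handling were not given in the sources used here, and each affects the number of called peaks. The deposited files give positions and names only, called per sample. Starts were taken to count from 0, and 1 was added for printing. A gap is the number of bp between the nearest ends. A chromosome's span is the stretch between its outermost peaks in the 3 lists. Position tables of another build (GRCm38) were not used.

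The members, comparisons and alternatives were chosen with earlier results of these data known. Named regions were the 5 widest, 5 narrowest, 5 closest to another list and 5 farthest from any peak, and the 5 chains with the most members (ties broken by covered length). Overlaps and gaps were tested on simulated data: 4337 of 4337 planted neighbours of E2F3B peaks were recovered, and bedtools 2.31.1 gave the same 2784 peaks. Scripts ran under Python 3.11.15, numpy 2.4.6, scipy 1.17.1, pandas 2.3.3 and matplotlib 3.10.9. No test was made, because each group had 1 library and the overlap chose the peaks.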

Additional observations from a re-analysis of the deposited data

How the results depend on the processing

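The share of E2F3B peaks that were E2F3B-only, 59.2%, depended on what counted as sharing. It was 73.7% (3468 peaks) with centres no more than 100 bp apart and 70.3% (3307) with 50% reciprocal overlap. When sharing meant peaks within 500 bp it was 57.1% (2684). It was 63.2% (2972) against E2F1 alone, 82.3% (3871) against E2F3A alone and 59.3% (2743) on autosomes only. The count and the density per Mb stayed within 1.5 times the reported values under these settings. The list held only 4704 peaks, so a count had little room to exceed that limit. When only the 50% widest peaks per list were kept, the count was 1361 and the density 0.541 per Mb, in place of 2784 and 1.09. Of these 1361 peaks, 1074 were also among the 2784. The median width, 337 bp, was 345 bp with centres within 100 bp, 347 bp against E2F3A alone and 418 bp in the widest peaks. The share within 10 kb of another list, 12.3%, was 29.6% with centres, 26.2% with reciprocal overlap, 9.02% within 500 bp, 8.08% in the widest peaks, 10.3% against E2F1 alone and 6.07% against E2F3A alone. Centres and reciprocal overlap leave some overlapping peaks in the set, which raises that share. With a single list, nearness was counted to that list only, and the set could hold peaks that overlap the other list. With the widest peaks, the lists measured against were cut as well. These values are therefore not the same measure as the 12.3%. The share within 10 kb of another E2F3B-only peak, 9.20%, was 12.6% with centres, 12.4% with reciprocal overlap, 4.70% in the widest peaks and 13.98% against E2F3A alone. Taking 1 kb or 100 kb as near gave 4.67% and 51.7% for other lists and 4.99% and 37.7% for E2F3B-only peaks. Of the 20 named peaks, 6 left the set within 500 bp and 11 with the widest peaks. Shares of promoter and motif were not run. No paired analysis was possible because every protein had a single library. Without depth or scores, sites with signal under the caller's threshold count as uncalled.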

Other observations

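The width distribution of E2F3B-only peaks had a step near 375 bp. From 350 to 374 bp there were 396 peaks (14.2%), and from 375 to 399 bp 186 (6.68%). E2F3A-only peaks went from 253 (23.0%) to 83 (7.55%) over the same bins. Shared E2F3B peaks went from 135 (7.03%) to 111 (5.78%), and back to 138 (7.19%) from 400 to 424 bp. In that last bin there were 136 E2F3B-only peaks (4.9%) and 22 E2F3A-only peaks (2%). The step was thus seen in both sets of unshared peaks, while shared peaks of the same E2F3B library had only a dip. Widths of E2F1-only peaks were not binned, and the lists were not scaled to each other. The step was noticed in the data, and its source was not tested.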
